A study of Ovis aries with 32 samples.

Results

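LRRFIP1, LRRFIP2 and FLII are 3 interacting genes, and every row of the deposited expression table that carried 1 of these names was taken. These were 10 of the 35219 transcripts in the table and 3 of its 21271 genes, with 4 transcripts for LRRFIP1, 3 for LRRFIP2 and 3 for FLII. Each transcript was examined by itself and as part of the sum over its gene, which gave 13 items. FLII (flightless I) is an actin-remodelling protein of the gelsolin family that carries leucine-rich repeats at its other end. LRRFIP1 and LRRFIP2 are paralogous proteins that were named for binding to those repeats. LRRFIP1 is also known as a transcriptional repressor that binds GC-rich promoters and as a cytosolic sensor of nucleic acids that acts through beta-catenin, while LRRFIP2 is known from Wnt and Toll-like receptor signalling. FLII is in addition a coregulator of nuclear receptors, and the actin cytoskeleton of a preadipocyte is taken apart as the cell rounds up and fills with lipid.

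The cells came from the perirenal fat of near-term fetuses of crossbred Columbia-Rambouillet sheep. Control ewes were pair-fed, and fetal growth restriction followed from placental insufficiency in ewes kept in a hot environment during pregnancy. RNA was sequenced from isolated preadipocytes of male controls (MC), female controls (FC), growth-restricted males (MFGR) and growth-restricted females (FFGR), and from the same kinds of cells after differentiation in culture (MCD, FCD, MFGRD and FFGRD). Each of these 8 groups had 4 libraries, 32 in all, and the labels name no genetic change in any of them. The numbers 1 to 4 name the libraries of a group, and nothing in the sample labels ties a number to an animal, so the p-values below measure the spread between these libraries.

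Values are read counts estimated by Salmon for each transcript and normalized between libraries by DESeq2, both by the authors. The normalized values of a library summed to 9524562 to 21218438 (median 12588087), and a value of 10 stood for about 5.6 to 14.4 reads. Because transcript lengths were not used, values of different genes are not compared as amounts, and a transcript's share of its gene is a share of normalized reads, not of molecules. The marker sums that follow add reads of several genes and only describe each list. The summed level of 6 adipocyte markers (ADIPOQ, FABP4, PLIN1, CEBPA, PPARG and LIPE) was 63.7 to 1359 in preadipocytes and 349 to 184787 in differentiated libraries, so the ranges overlapped and differentiation was uneven. Of 8 preadipocyte and fibroblast markers DLK1 stayed below 10 in every library, and the sum of the 8 ran from 154671 to 1271230 before and from 84817 to 927471 after differentiation. COL1A1 and COL3A1 had by far the highest means of the 8 in every group, so the sum says little about the other members. Over 32 libraries limma called 1 of the 7 tested higher and 2 lower, where 27.2% of all gene sums were called. Over both stages the summed markers of endothelium ran from 1.08 to 284 (with CDH5 below 10 throughout), those of leukocytes from 88.4 to 902 and those of epithelium from 0.70 to 147. Over 32 libraries limma called KDR lower, CD14 higher and CD68 lower among them. KDR was close to the limit of measurement, at most 56.3 in preadipocytes and 21.5 in differentiated libraries. It entered the fit mainly through preadipocyte libraries, so the direction of its call was largely set by the filter. Muscle markers were at 71.0 to 3013 in preadipocytes and 0.80 to 308 in differentiated cells, with MYOG below 10 in every library, and both muscle markers that could be tested, DES and ACTC1, fell. The part of these markers in the results below was not tested, and in bulk RNA fewer cells of a type and less RNA per cell cannot be told apart.

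In some libraries transcripts of genes with a long genomic span read lower, relative to their mean over all libraries, than in the others. This was measured as the slope of each library's centred log2 values on the log2 genomic span of 19469 transcripts, which ran from -0.319 to 0.121 with a median of 0.071. The 7 libraries of lowest slope, MCD 4, MFGR 1, MFGRD 1, FC 2, FFGR 2, FFGR 3 and FFGRD 3, were at -0.319 to -0.168. MCD 2 and FCD 2 followed at -0.142 and -0.122, and the next lay at -0.038. The mean responses and shares below are given with all libraries, and also without the 7 or without all 9 where that changed a call or where the result concerns the long-span transcript.

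The LRRFIP1 gene (ENSOARG00020002080) lies on chromosome 1 of the Oar_rambouillet_v1.0 build. Transcript LRRFIP1-201 (ENSOART00020003237) runs from 3309913 to 3468648, a span of 158.736 kb. The other 3 transcripts, LRRFIP1-202, LRRFIP1-203 and LRRFIP1-204, share a single span of 78.164 kb from 3323415 to 3401578, which lies inside it. LRRFIP1-201 reaches 13.502 kb beyond them on the low-coordinate side and 67.07 kb on the high-coordinate side. LRRFIP2 (ENSOARG00020025704) has its 3 transcripts on a single span of chromosome 19, from 10994731 to 11079298. FLII (ENSOARG00020026337) is a compact gene on chromosome 11, where FLII-201 and FLII-202 run from 28913810 to 28925774 and FLII-203 ends at 28925576. Strand and exon structure were not used here, and since the transcripts of a gene overlap, Salmon had to divide shared reads among them.

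LRRFIP1-204 held 44.1 to 79.4% of the LRRFIP1 reads of a library and LRRFIP1-201 held 14.3 to 47.7%. LRRFIP1-202 came next with at most 9.86%, and LRRFIP1-203 stayed at or below 3.64%. LRRFIP2 was read almost entirely as LRRFIP2-203, with 87.8 to 98.8% of its reads. FLII was split between FLII-201 and FLII-203, which held medians of 47.3% and 46.7% of the gene in preadipocytes, while FLII-202 had a median of 6.57%. A value of at least 10 was reached in all 32 libraries by LRRFIP1-201, LRRFIP1-202, LRRFIP1-204, LRRFIP2-203 and FLII-201, and in 24 to 31 libraries by the other 5 transcripts. All 10 transcripts and all 3 gene sums passed the filter of the fit over 32 libraries, a value of 10 in at least 4 libraries.

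LRRFIP1 fell with differentiation, and its long-span transcript LRRFIP1-201 did so without overlap between the stages in each of the 4 groups. The question in each case was how the cells changed from preadipocyte to differentiated cell. LRRFIP1-201 values in MC libraries 1 to 4 were 742, 1224, 1333 and 1365, and in MCD they were 554, 462, 523 and 538. In females it went from 3904, 1575, 948 and 909 in FC to 778, 318, 439.9 and 331 in FCD. The lowest preadipocyte library of either control sex was therefore above the highest differentiated one of that sex.

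In growth-restricted males LRRFIP1-201 was at 2144, 1075, 992 and 1013 before and at 958, 509, 311 and 551 after differentiation. These stages did not overlap either, but MFGRD 1 at 958 came close to MFGR 3 at 992. FFGR libraries had 3415, 1062, 1790.3 and 956, and FFGRD libraries 658, 576, 427 and 482. In pairs of libraries of the same number the differentiated one was lower in 16 of 16, which the lack of overlap made certain for any pairing. Counts of number-matched pairs, here and below, are descriptions only. No share over all features was taken for them, and the numbers did not all pair in FFGR. Over all groups the preadipocyte range was 742 to 3904 (median 1150, n = 16) and the differentiated range 311 to 958 (median 516, n = 16). Differentiated libraries lay wholly below preadipocyte libraries in all 4 groups for 1.07% of the 14678 transcripts that could be compared, and in single groups for 7.37% (MC), 4.28% (FC), 5.57% (MFGR) and 5.28% (FFGR).

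**Figure D1:**
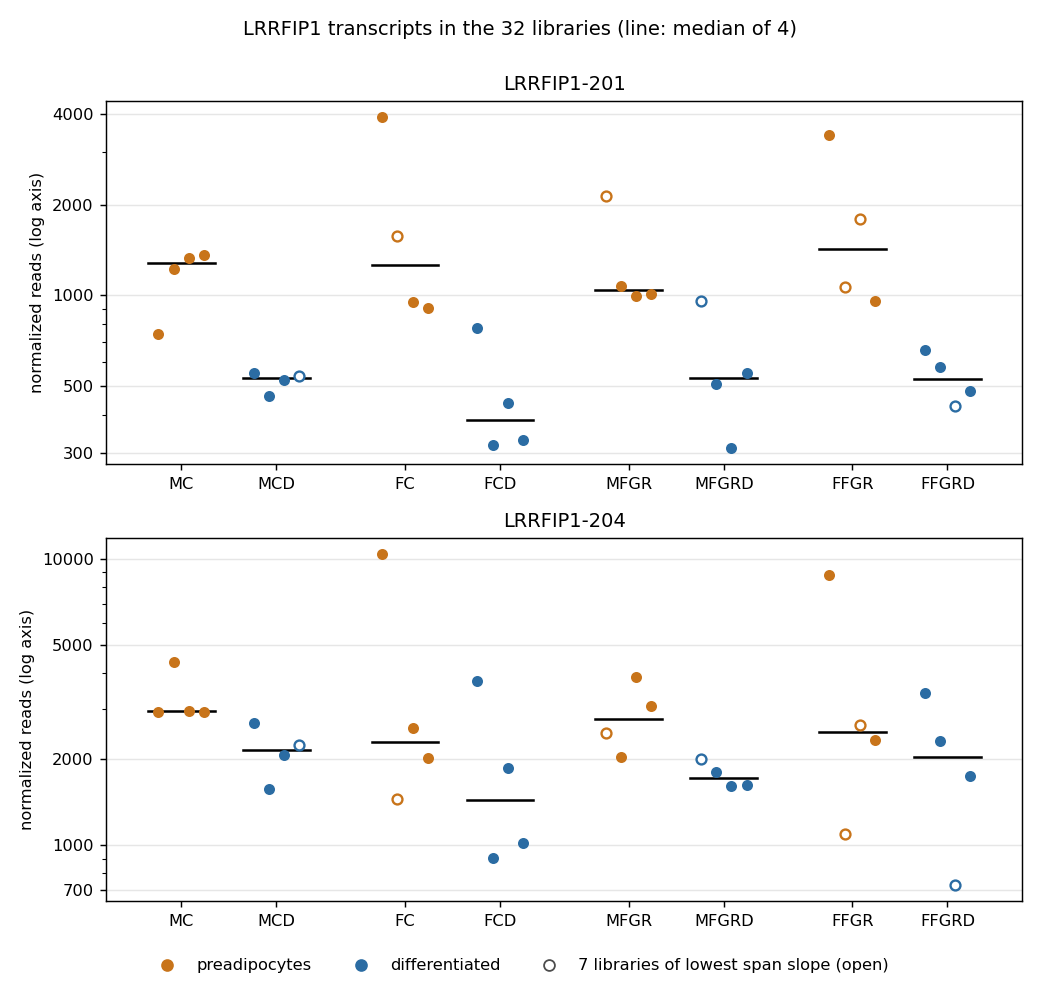
Normalized values (log axis) of LRRFIP1-201 and LRRFIP1-204 in each library of the 8 groups, with a line at the median of the 4 libraries and open circles for the 7 libraries of lowest span slope. Every differentiated group of LRRFIP1-201 lies below its preadipocyte group, while FC 1 and FFGR 1 stand high for LRRFIP1-204 at 10394 and 8799.9.

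Fitted over 32 libraries with limma, LRRFIP1-201 was lower by a mean log2 fold change of -1.42 (SE 0.21, 95% interval -1.86 to -0.99, Benjamini-Hochberg adjusted p = 1.3e-05). A feature was called when this adjusted p was under 0.05 and the fold change over 1.5, and log2 was taken of the value plus 1. Of the 13 items 4 passed in this fit, which called 19.8% of all transcripts and 27.2% of all gene sums. They were LRRFIP1-201, LRRFIP1-202, the LRRFIP1 sum and FLII-203, all lower, where 10.8% of transcripts and 14.8% of gene sums were called lower. The study itself singled LRRFIP1 out from these libraries for its response, so its fall here is no independent evidence.

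The LRRFIP1 sum stood at 4238, 6133, 4703 and 4539.6 in MC and at 3498, 2186, 2688 and 2862 in MCD. In MFGR it was 4903, 3303, 5365 and 4365 and in MFGRD 3167, 2453, 2182 and 2318. In both male groups every preadipocyte library exceeded every differentiated one, as did 8.46% and 6.31% of gene sums (5.15% in FC and 6.3% in FFGR). The female groups overlapped: FC had 14756, 3303, 3823 and 3146 against 5080.3, 1335, 2510.3 and 1500.0 in FCD, and FFGR had 12712, 2256, 4779 and 3641 against 4279, 3113, 1229 and 2490.0 in FFGRD. Library 1 was the highest of FC, FCD, FFGR and FFGRD, and in number-matched pairs the sum was lower after differentiation in 15 of 16. The mean log2 fold change of the sum was -0.91 (SE 0.24, 95% interval -1.41 to -0.42, limma adjusted p = 0.0039). Without the 7 libraries of lowest span slope the mean change was -1.03 for the sum and -1.45 for LRRFIP1-201, without the 9 it was -0.92 and -1.40, and both were called each time.

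LRRFIP1-204, the transcript with most reads, was at 2928, 4361, 2948 and 2915 in MC and 2670.5, 1579, 2076 and 2243 in MCD. It was at 2480.3, 2040.5, 3889.6 and 3068 in MFGR and 2011, 1806, 1609.8 and 1631 in MFGRD, again with no overlap in either male group. The same held for 7.37% of all transcripts in MC and 5.57% in MFGR. The FC libraries had 10394, 1456, 2575 and 2014 against 3744, 906, 1862 and 1021 in FCD, and FFGR had 8799.9, 1093, 2643 and 2334 against 3396, 2319, 728 and 1746 in FFGRD. Its mean log2 fold change of -0.71 (SE 0.28) missed the threshold (limma adjusted p = 0.068). It was called without the 7 libraries of lowest span slope (-0.90, adjusted p = 0.024) and when any 1 of FC 2, FCD 1, FFGR 2 or FFGRD 1 was left out, where the values lay within the leave-one-out range of -0.82 to -0.56. With the library number as a block it was called as well (adjusted p = 0.011), and without the 9 libraries of lowest slope it was not (-0.78, adjusted p = 0.053).

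LRRFIP1-202, a transcript of the shared shorter span, fell too, with a mean log2 fold change of -1.01 (SE 0.26, limma adjusted p = 0.0052). Its values were 414, 484, 388 and 234 in MC and 243, 109, 82.6 and 67.6 in MCD, where the stages overlapped only through MCD 1 and MC 4. In the other groups it ran from 73.8 to 470.4 in preadipocytes and from 66.8 to 488 after differentiation, and the stages overlapped in each. The rarest of the 4, LRRFIP1-203, ranged from 0 in FCD 4 to 154 in MC 1, and its change of -0.32 was far from the threshold (limma adjusted p = 0.75).

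Within single groups of 4 against 4 libraries none of the 13 items was called by limma, although 5 items in MC, 1 in FC, 5 in MFGR and 1 in FFGR had an unadjusted p under 0.05. These fits called 2.83% (MC), 0.143% (FC), 1.32% (MFGR) and 0.616% (FFGR) of transcripts and 7.53%, 0.43%, 3.38% and 2.67% of gene sums. The log2 fold change of LRRFIP1-201 was -1.13 in MC (SE 0.25, adjusted p = 0.051), -1.80 in FC (SE 0.52, adjusted p = 0.29), -1.20 in MFGR (SE 0.40, adjusted p = 0.23) and -1.58 in FFGR (SE 0.43, adjusted p = 0.15). That of the LRRFIP1 sum was -0.81, -1.13, -0.82 and -0.90 in the same order, with adjusted p = 0.082, 0.49, 0.17 and 0.56. Libraries of the same number deviated together in MFGR and FC, and in MC for gene sums. In MFGR a limma fit with the number as a block called both the sum (adjusted p = 0.029) and LRRFIP1-201 (adjusted p = 0.026). The blocked fit of MFGR also called far more features in all, 17.9% of gene sums (9.45% lower) and 7.07% of transcripts (4.17% lower). In FC and MC the blocked fit called no member, and in FC it called 1 transcript of all those tested.

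**Figure D2:**
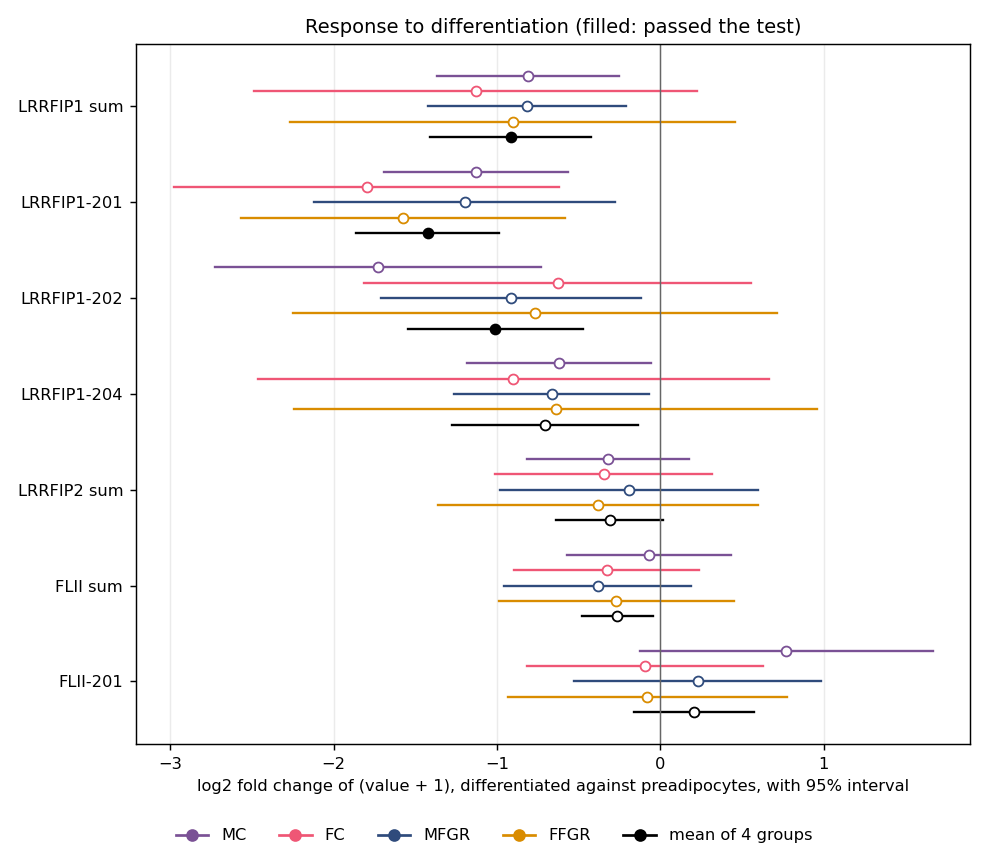
Log2 fold change (differentiated against preadipocytes, with 95% interval) of 7 items in each of 4 groups and as the mean over the groups, filled where the test was passed. LRRFIP1-201 and the LRRFIP1 sum lie below 0 in every group, with means of -1.42 and -0.91, while LRRFIP2 and FLII sums lie closer to 0.

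The study asked whether MFGR preadipocytes differentiate unlike the other groups, and for LRRFIP1 this was put to a test of the difference itself. The response of MFGR minus the mean response of MC, FC and FFGR was 0.13 on the log2 scale for the LRRFIP1 sum (95% interval -1.01 to 1.27) and 0.30 for LRRFIP1-201 (95% interval -0.71 to 1.32). Against MC alone the MFGR response differed by -0.01 for the sum (95% interval -0.71 to 0.70) and by -0.07 for LRRFIP1-201 (95% interval -1.08 to 0.95). Against FFGR the differences were 0.09 and 0.38. The point estimates for the sum were thus near 0, and the intervals still allow a change of either sign.

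Between the other groups the response of FFGR minus that of FC was 0.23 for the LRRFIP1 sum, and MC minus FC was 0.32 for the sum and 0.67 for LRRFIP1-201 (95% interval -0.59 to 1.92). In the 5 comparisons of responses limma called 0 of 13 items in each, and 0 of 65 tests had an unadjusted p under 0.05. The background was as bare, with 0.00562% of transcripts called for MFGR minus MC and 0.0% in the other 4 comparisons and for every gene sum. Several of these comparisons share libraries, so they do not count as separate evidence.

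LRRFIP1 did not differ detectably with growth restriction at either stage. Over both sexes with sex in the model, the log2 fold change of the sum was -0.10 in preadipocytes (95% interval -0.85 to 0.66) and 0.01 in differentiated cells (95% interval -0.60 to 0.62). LRRFIP1-201 gave 0.09 (95% interval -0.62 to 0.80) and 0.17 (95% interval -0.33 to 0.66). Within a sex the sum changed by -0.14 for MFGR against MC, -0.06 for FFGR against FC, -0.15 for MFGRD against MCD and 0.17 for FFGRD against FCD. In none of the 6 growth comparisons was any of the 13 items called by limma, and 0 of 78 tests had an unadjusted p under 0.05. Called transcripts were as rare among all those tested, at 0.0315% for MFGR against MC, 0.00635% for MFGRD against MCD and 0.0% elsewhere, with 0.0% of gene sums throughout.

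LRRFIP1 did not differ detectably between the sexes either. Male against female, the log2 fold change of the LRRFIP1 sum was -0.02 in controls and -0.10 in growth-restricted preadipocytes, and 0.30 and -0.01 in the differentiated cells of the same groups. For LRRFIP1-201 these values were -0.42, -0.35, 0.25 and 0.03. No item was called by limma in the 4 comparisons of sex, 0 of 52 tests had an unadjusted p under 0.05, and the share of all transcripts called was 0.00627%, 0.0%, 0.0441% and 0.0126% for MC, MCD, MFGR and MFGRD against their female counterparts, with 0.0% of gene sums.

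**Figure D3:**
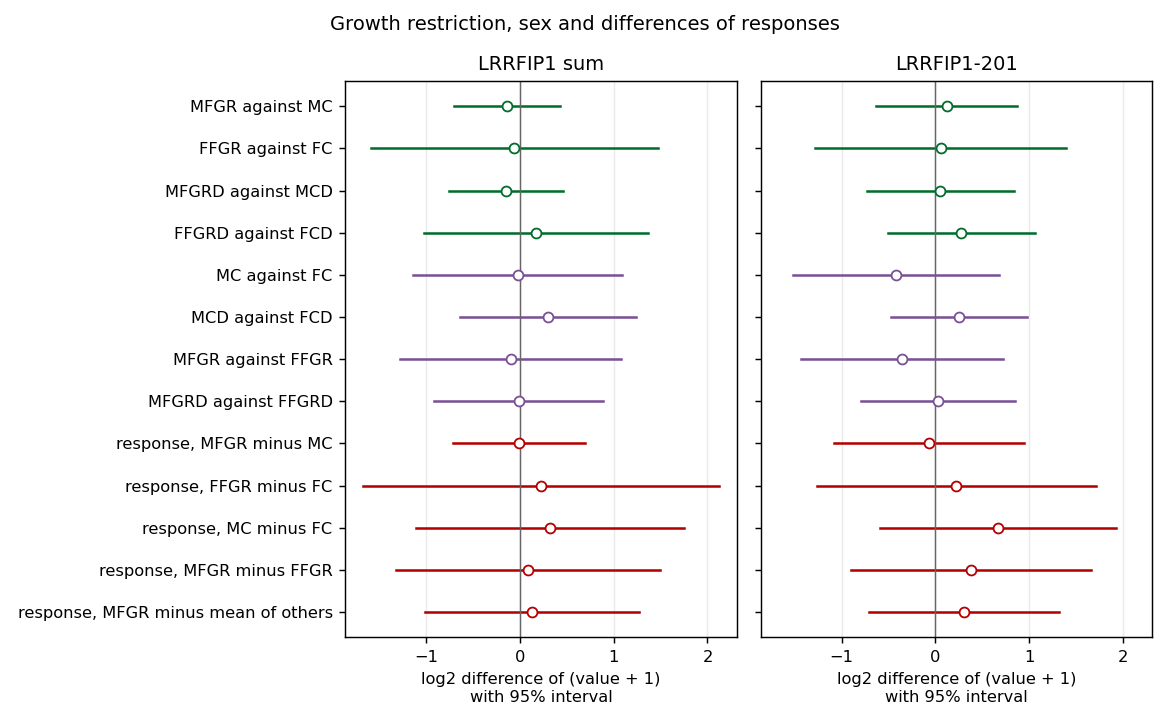
Log2 differences with 95% intervals for the LRRFIP1 sum and LRRFIP1-201 in 4 comparisons of growth restriction with control, 4 of males with females and 5 of responses to differentiation. Every interval includes 0, and none of the tests was passed.

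Ordered by mean, the LRRFIP1 sum in preadipocytes was 6257 in FC, 5847 in FFGR, 4903 in MC and 4484 in MFGR. In differentiated cells it was 2809 in MCD, 2778 in FFGRD, 2606 in FCD and 2530.2 in MFGRD. The female preadipocyte means rest on library 1, since the medians of FC and FFGR, 3563 and 4209.9, were below those of MC and MFGR, 4621 and 4634. Each group overlapped the next in the order at both stages, for the LRRFIP1 sum, LRRFIP1-201, the LRRFIP2 sum and the FLII sum.

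The composition of LRRFIP1 shifted along with its level. LRRFIP1-201 held a mean of 24.0% of the gene's reads in MC and 18.8% in MCD, 32% in FC and 19.7% in FCD, 29.5% in MFGR and 22.3% in MFGRD, and 34.4% in FFGR and 22.0% in FFGRD. The mean difference over the 4 groups was -9.28 percentage points (permutation test within groups, two-sided, 100000 permutations, p = 0.0018), and the share was lower after differentiation in 14 of 16 number-matched pairs. By group the exact permutation test of 4 against 4 gave p = 0.23 in MC, 0.029 in FC, 0.34 in MFGR and 0.14 in FFGR, where 0.029 is the smallest p it can give and becomes 0.11 after Benjamini-Hochberg adjustment over the 4 groups. FC was the group whose shares did not overlap between stages.

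Of the 7 libraries of lowest span slope all but MCD 4, at 18.8%, carried higher shares of the long-span transcript than the other libraries of their stage. Over all transcripts long spans read lower in these libraries, so the share of LRRFIP1-201 went the other way. In preadipocytes LRRFIP1-201 held 37.5 to 47.7% of the gene in the 4 such libraries and 17.5 to 32.6% in the other 12, without overlap. After differentiation it held 18.8 to 34.7% in the 3 such libraries and 14.3 to 23.8% in the other 13. Without the 7 the mean shift was -6.54 points (permutation p = 0.0014), and without the 9 it was -7.18 points (p = 0.0014). Any further part of the span slope was not tested.

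**Figure D4:**
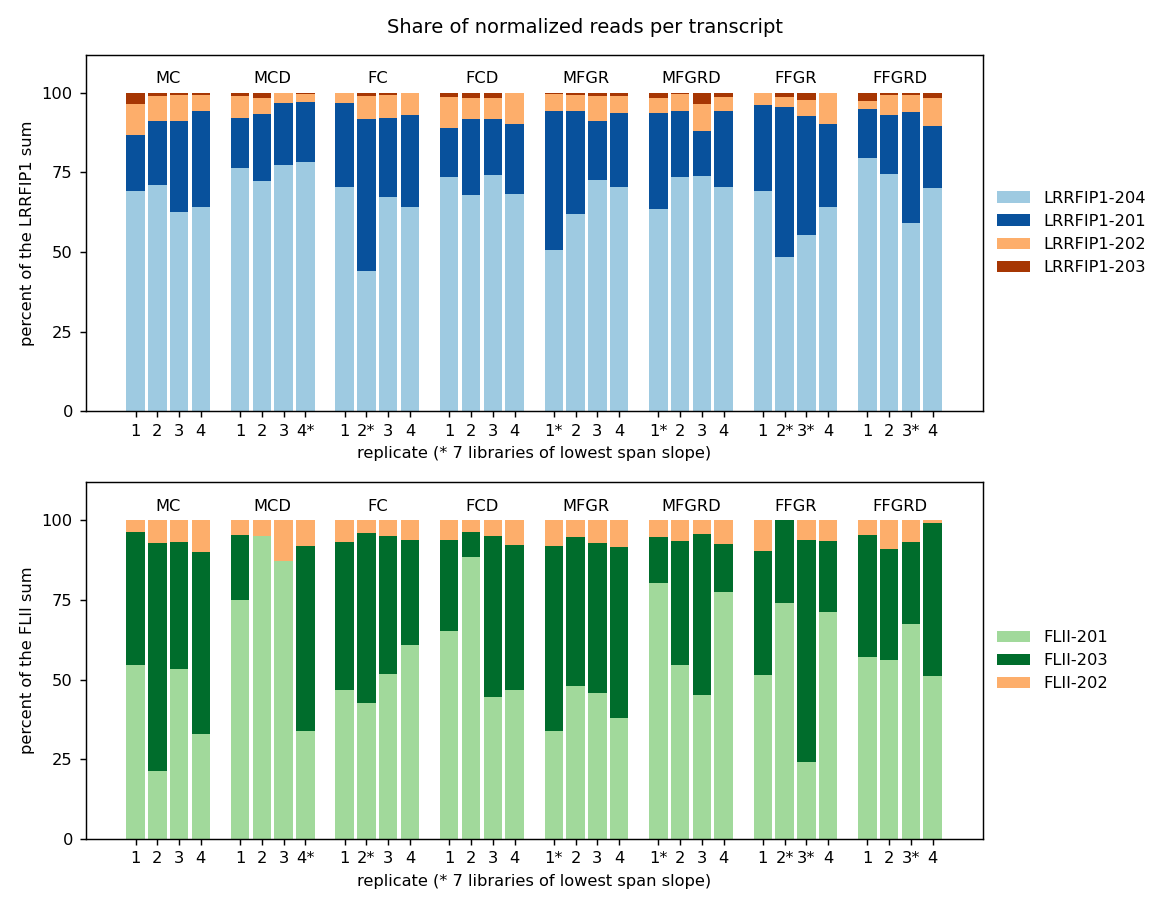
Share (percent) of each transcript in the LRRFIP1 reads and in the FLII reads of each library, stacked, with an asterisk under the 7 libraries of lowest span slope. LRRFIP1-204 and LRRFIP1-201 make up most of LRRFIP1 in every library, and FLII moves between FLII-201 and FLII-203, with FLII-203 at 0 in MCD 2 and MCD 3.

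LRRFIP2, the paralogue of LRRFIP1, was not called. Its sum in MC was 1377, 1640.5, 1196 and 1196 and in MCD 1307, 960.4, 1054 and 1006. It was 1765, 832, 1334 and 1008 in FC against 902, 801, 1017 and 1025 in FCD. The stages overlapped in both sexes, with the differentiated libraries in the lower part of the range.

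In MFGR the LRRFIP2 sum was 658, 861, 1868 and 1195 and in MFGRD 761, 902, 1171 and 922, and in FFGR it was 2631, 742, 1014 and 1260.2 against 1023, 1115, 658 and 1155 in FFGRD. The SD was 501 over the 16 preadipocyte libraries and 164 over the 16 differentiated ones, and FFGR 1 and MFGR 3 were the highest of all. The mean log2 fold change of -0.31 (SE 0.16, 95% interval -0.64 to 0.02) was not called (limma adjusted p = 0.14, between 0.011 and 0.25 over the alternatives, none of which reached a fold of 1.5), and in number-matched pairs the sum was lower in 12 of 16. LRRFIP2-203, which makes up nearly all of the sum, gave -0.33 (adjusted p = 0.15).

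The 2 minor LRRFIP2 transcripts were close to the limit of measurement. LRRFIP2-201 ranged from 3.82 to 28.2 in preadipocytes and from 8.61 to 48.4 in differentiated libraries, with a log2 fold change of 0.44 (limma adjusted p = 0.28). LRRFIP2-202 ranged from 6.38 to 76.9 and from 0 in MCD 4 to 68.8, with -0.51 (adjusted p = 0.48). At these depths a value of 10 is about 10 reads, and no change was detectable.

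The FLII sum was not called. It was 1770.1, 2020.1, 1939.8 and 2384 in MC and 1869, 1559, 2234 and 2081 in MCD, and 2489.7, 2798, 1848 and 2133 in FC against 1769, 2054, 1828 and 1659 in FCD. In MFGR it was 2834, 2928, 2004 and 2658 and in MFGRD 2465, 2008, 1667 and 1845, and in FFGR 3353, 2187, 2858 and 1852 against 2159, 2579.6, 2059 and 1599.7 in FFGRD. The stages overlapped in every group, and in number-matched pairs the sum was lower in 13 of 16, with 4 of 4 in FC and in MFGR. The mean log2 fold change was -0.26 (SE 0.11, 95% interval -0.48 to -0.05), with a limma adjusted p of 0.055 (0.015 to 0.18 over the alternatives), and its size stayed below the fold of 1.5 that a call required. With growth restriction the FLII sum differed by 0.24 in preadipocytes of both sexes (95% interval -0.11 to 0.59, limma adjusted p = 0.81).

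Within FLII the shorter FLII-203 was lower in differentiated cells, whereas FLII-201 was not called. FLII-203 was at 741, 1447, 773 and 1361 in MC and at 379.7, 0, 0 and 1209.7 in MCD. It was at 1158, 1502, 801 and 704 in FC and 503, 162, 929 and 754 in FCD, with overlap in both sexes. In MFGR it was 1652, 1375, 947 and 1428, all above the 357, 786, 845 and 280.0 of MFGRD (as for 5.57% of all transcripts), and in FFGR 1305, 568, 1993 and 413 against 826, 900.3, 531 and 767 in FFGRD.

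The mean log2 fold change of FLII-203 was -1.99 (SE 0.69, limma adjusted p = 0.037), on a scale where the 2 MCD libraries listed at 0 weigh heavily. The call was lost with a pseudocount of 0.1 (adjusted p = 0.059), without the filter on low values (adjusted p = 0.053), without the 9 libraries of lowest span slope (-1.74, adjusted p = 0.055) and in 11 of 32 fits that left out 1 library, where the adjusted p reached 0.061. MCD 2 and MCD 3 were the libraries in which FLII-201 took most of the gene, 95.2% and 87.2%. The change in MC alone, -5.31, rests in part on these zeros and was not called (adjusted p = 0.26), except with all 8 groups in a single fit (adjusted p = 0.023). It was -1.02 in FC, -1.38 in MFGR (adjusted p = 0.17) and -0.25 in FFGR.

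FLII-201 had 966, 428, 1034 and 785 in MC and 1403, 1484, 1948 and 705 in MCD. In the other groups it ran from 688 to 1727 in preadipocytes and from 751 to 1981 in differentiated libraries. Its mean log2 fold change was 0.21 (SE 0.18, limma adjusted p = 0.47). FLII-202 ranged from 0 in FFGR 2 to 321 in FFGR 1 and gave -0.08 (adjusted p = 0.95). Its MFGRD libraries (71.1 to 134) lay below its MFGR libraries (139 to 223), as they did for 5.57% of all transcripts. The share of FLII-203 in the gene, examined after its values were seen, differed by -17.0 points between stages (permutation test within groups, p = 0.0099), by -14.6 points without the 7 libraries of lowest span slope (p = 0.034) and by -11.6 points without the 9 (p = 0.085). In single groups the exact permutation test gave p = 0.11 or higher in MC and FC, 0.086 in MFGR and 0.83 in FFGR.

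**Figure D5:**
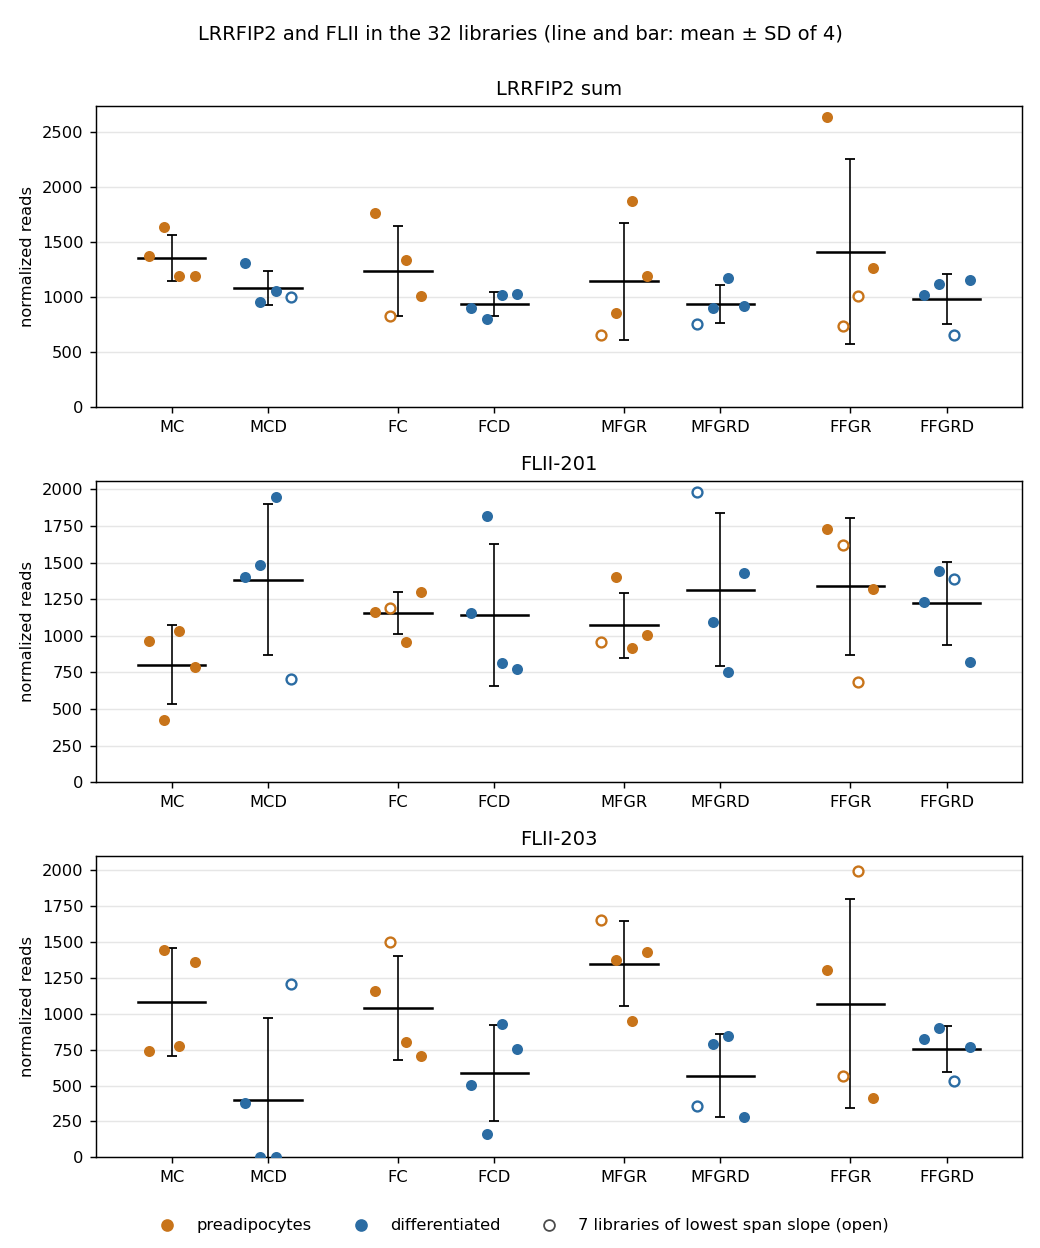
Normalized values (linear axis) of the LRRFIP2 sum, FLII-201 and FLII-203 in each library, with the mean and SD of 4 libraries. LRRFIP2 and FLII-201 overlap between stages in every group, while FLII-203 is listed at 0 in MCD 2 and MCD 3, where the SD bar reaches the axis.

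LRRFIP1 and LRRFIP2 varied together across preadipocyte libraries. Over 16 libraries of 4 groups Pearson's r of their log2 sums was 0.75 (permutation p = 0.00067, adjusted 0.0040 over 6 relations) and Spearman's rho was 0.64 (permutation p = 0.0093, adjusted 0.056). Without FC 1 and FFGR 1, the libraries farthest from the median of LRRFIP1, r was 0.58. In differentiated libraries r was 0.41 (permutation p = 0.12, adjusted 0.35), and the other 4 relations among the 3 genes had adjusted p of 0.44 to 0.68. These libraries share their normalization, and the groups overlap as described above. The permutation was not kept within groups, and the relation was not examined without the libraries of low span slope. No share over all genes was taken within the preadipocyte libraries, so the relation is not shown to be particular to this pair.

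The genes most like LRRFIP1 over 32 libraries, by Pearson's r of log2 gene sums among 10618 genes, were DLGAP4 (0.82), NPEPPS (0.82), PAQR7 (0.81), PIAS1 (0.80) and CEP63 (0.80). DLGAP4 encodes a postsynaptic scaffold protein, NPEPPS a cytosolic aminopeptidase, PAQR7 a membrane progestin receptor, PIAS1 a SUMO ligase and CEP63 a centrosomal protein. Across all genes the median r was 0.06 and the 95th percentile 0.552. LRRFIP2 stood at rank 89 with 0.69 and FLII at rank 1095 with 0.48. After the group means were subtracted PIAS1 was at 0.82, DLGAP4 at 0.73, LRRFIP2 at 0.64 (rank 184) and FLII at 0.32 (rank 3844), with a 95th percentile of 0.553 over all genes. The highest r was then that of RORA (0.84, against 0.38 before), a gene singled out after its values were seen. The points are libraries of 2 stages that share depth and processing, so these are descriptions only.

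The relatives and partners of the 3 proteins were read on the same scale as gene sums, from lists in which some members were named only after their values were seen. The gelsolin family, to which FLII belongs, had 5 of 7 listed genes tested in the fit over 32 libraries, with 1 higher and 3 lower at a median log2 fold change of -1.37, against 0.03 for all genes and 27.2% of all gene sums called. GSN, the plasma and cytoplasmic severing protein, rose by 1.5 on the log2 scale (limma adjusted p = 0.012). SCIN (-2.45, adjusted p = 0.011), CAPG (-1.53, adjusted p = 0.0076) and AVIL (-1.37, adjusted p = 0.0018) fell, while SVIL was at 0.18. Advillin, scinderin and CAPG are actin-severing or actin-capping proteins like GSN, so members of the same family went in opposite directions. In the single groups limma called 0 of the 4 to 5 members tested, with an unadjusted p under 0.05 for 2 in MC, 0 in FC, 1 in MFGR and 3 in FFGR.

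Of 12 partners of FLII in the actin cytoskeleton 10 were tested over 32 libraries. DAAM1, a formin that FLII is known to bind, rose by 1.25 (limma adjusted p = 0.0024), and ACTG1 (-0.72, adjusted p = 0.019) and PXN (-0.83, adjusted p = 0.0044), cytoplasmic actin and the adhesion protein paxillin, fell. The list's median was -0.24 and its other 7 members did not pass, so 3 of 10 were called where the fit called 27.2% of all gene sums, a share near the background. CDC42 and DIAPH1 were not analysed here, and limma called 0 of 10 in each single group (background 7.53% in MC, 0.43% in FC, 3.38% in MFGR and 2.67% in FFGR), with an unadjusted p under 0.05 for 2 in MC, 1 in FC, 3 in MFGR and 2 in FFGR.

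Partners of FLII in nuclear receptor transcription had 4 members called higher and 0 lower of 14 tested, at a median of 0.18, where 12.4% of all gene sums were called higher. In either direction the fit called 27.2% of all gene sums, a share near these 4 of 14. THRB, a thyroid hormone receptor, rose by 2.94 (limma adjusted p = 1.1e-06), MLXIPL, the glucose-responsive factor ChREBP, by 3.01 (adjusted p = 2e-05), RXRA, the retinoid receptor that pairs with PPARG, by 1.09 (adjusted p = 9.9e-05), and PPARG, the master regulator of fat cells, by 2.26 (adjusted p = 0.00053). MLXIPL stayed at or below 6.51 in every preadipocyte library. It passed the filter only through differentiated libraries, so the direction of its call was set by the filter. In MC 3 of 12 tested were called higher, PPARG (3.62, limma adjusted p = 0.016), RXRA (1.16, adjusted p = 0.045) and THRB (2.95, adjusted p = 0.0080), where 3.33% of all gene sums were called higher. In MFGR THRB was the only 1 of 12 called (3.19, adjusted p = 0.0088), against 1.22% of all gene sums called higher, and in FC and FFGR 0 of 12 were called, with an unadjusted p under 0.05 for 3 in each. PPARG is also an adipocyte marker above, and is counted in both lists.

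Among 12 tested partners of LRRFIP1 and LRRFIP2 in nucleic acid sensing, Toll-like receptor and Wnt signalling, TLR4, the lipopolysaccharide receptor, was the only one called. It fell by 0.90 on the log2 scale (limma adjusted p = 0.00043), and the median of the list was -0.18. This 1 call among 12 genes is a smaller share than the 27.2% of all gene sums called in the fit (14.8% lower). In single groups limma called 0 of these 11 to 12 genes, with an unadjusted p under 0.05 for 2 in MC, 1 in FC, 1 in MFGR and 0 in FFGR. TLR3, IFNB1 and CASP1 were not analysed here. Of 4 genes whose promoters LRRFIP1 is known to repress, 3 were tested over 32 libraries. PDGFA, the platelet-derived growth factor A chain, fell (-1.66, limma adjusted p = 0.0011), EGFR was at -0.19 (adjusted p = 0.74) and the glutamate transporter SLC1A2 at 1.09 (adjusted p = 0.057), and TNF did not pass the filter. SLC1A2 was close to the limit of measurement, at or below 2.18 in every preadipocyte library and at 0 to 19.7 in differentiated ones. It entered the fit only through differentiated libraries, so its value is not read as a change.

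The 6 other genes that the study listed as lower with differentiation, TPM2, PLS3, NEXN, LMO7, SPRED3 and POSTN, were all called lower over 32 libraries, with a median of -2.23. They were chosen on these libraries, so this count is no independent evidence. Beside them LRRFIP1 changed less, at -0.91, and 3 of the 6 (TPM2, PLS3 and NEXN) are proteins of actin filaments. SPRED3 stayed at or below 7.81 in every differentiated library. It passed the filter only through preadipocyte libraries, so the direction of its call was set by the filter.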

How the data were processed

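RNA of preadipocytes and differentiated cells was sequenced by the authors, with FastQC 0.11.9, Salmon and DESeq2 named in the submitters' processing notes. Salmon estimated counts per transcript against Oar_rambouillet_v1.0. The deposited values are these counts after size-factor scaling with DESeq2 by the authors, a signal that is no longer whole reads (75.4 to 96.9% of values per library lay within 0.1 of a whole read, so no count test was run). The same table holds group means by the authors and columns of fold changes and p-values of their own comparisons, which were not used.

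Values of the transcripts of a gene were added. Transcripts or sums that reached 10 in 4 or more libraries of a fit entered limma 3.58.1 (R 4.3.3, empirical Bayes with trend) on log2(value + 1), with Benjamini-Hochberg adjustment over all features tested. A call required an adjusted p under 0.05 and a fold change over 1.5. Each comparison used the libraries of its own groups, and the mean response used all 32. Shares were compared by permutation in Python 3.11.15 (numpy 2.4.6, pandas 2.3.3, scipy 1.17.1). The fits were tested on simulated data. Figures were drawn with matplotlib 3.10.9.

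Apart from the 3 genes and their transcripts, the rule named members of a partner list that passed in at least 1 of the 4 single-group comparisons, at most 4 per list, and the 5 genes most like LRRFIP1. Marker genes and the study's 6 other genes were named from their lists. Partners that passed only in the mean response, or did not pass (SVIL, EGFR and SLC1A2), and RORA fall outside the rule and were named after their values were seen. The 3 genes, the lists and the tests were chosen with earlier results of these data known.

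Library numbers were checked for pairing by the correlation of deviations from the group means between libraries of the same number. All 4 pairs were over 0.1 in FC (lowest 0.303 for gene sums, 0.124 for transcripts) and MFGR (0.393 and 0.145), in MC for gene sums alone (0.162 and 0.030), and not in FFGR (-0.398 and -0.251). For gene sums in FFGR only number 2 was below 0.1, while numbers 1, 3 and 4 gave 0.331, 0.565 and 0.529. The r of FFGR 1 was higher with another number (0.353). Alternatives covered the pseudocount, filter, quantile normalization, library weights, the span slope, the block and single libraries left out. The alternatives without the 7 or 9 libraries of lowest span slope, and the share of FLII-203, were added after seeing the data.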

Additional observations from a re-analysis of the deposited data

Results flagged for a closer look

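In 8 of 104 groups of 4 libraries 1 library stood apart from the other 3, its gap to the nearest of them exceeding Dixon's 95% critical share of the group's range. For independent values from a normal distribution, chance alone gives such a gap in about 1 group in 20. The values here were not log-transformed, and a gene sum and its transcripts were counted separately, so this rate is only a rough guide. For LRRFIP1 these were FC 1, with 14756 for the sum and 10394 for LRRFIP1-204, MC 2 with 4361 for LRRFIP1-204, and MFGR 1 with 2144 for LRRFIP1-201. MFGR 1 is also among the 7 libraries of lowest span slope, and FC 1 is not. For LRRFIP2-201 they were MCD 2 with 48.4 and FCD 1 with 22.7, for LRRFIP2-202 FFGR 1 with 76.9, and for FLII-202 the low value of 71.1 in MFGRD 3.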

How the results depend on the processing

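The mean falls of LRRFIP1-201 and of the LRRFIP1 sum were called under each alternative run and in all 32 fits that left out a library (-1.49 to -1.31 and -1.03 to -0.78). Single-group calls depended on the fit. The LRRFIP1 sum was called in MC with library weights (-0.77), and in MFGR with the replicate block (-0.82), the span slope as covariate (-0.82) and library weights (-0.79). LRRFIP1-201 was called in MC with quantile normalization (-1.11) and a minimum of 20 CPM (-1.13), in FC and FFGR with all 8 groups in the fit (-1.80 and -1.58), in MFGR with the block (-1.20), span slope (-1.22) and weights (-1.24), and in FFGR with the span slope (-1.66). LRRFIP1-202 was called in MC with weights (-1.85), and FLII-203 in MC with all 8 groups (-5.31). Signs turned for the FLII sum in MC with weights (0.10), FLII-201 in FC with quantile normalization (0.068) and in MFGR with weights (-0.086) or without the 7 libraries (-0.046), FLII-203 in FFGR with weights (0.020) or without the 7 (0.18), and the LRRFIP1 sum with growth restriction in preadipocytes with the span slope (0.020) or without the 7 (0.0030) and in differentiated cells with quantile normalization (-0.059) or the span slope (-0.0087). None of these values was called, and the cause was not tested.

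Leaving out 1 library, the change lay between these values: LRRFIP1 sum in MC -0.92 to -0.70 (called without MCD 1), LRRFIP1-201 in MC -1.33 to -1.04 (called without MC 1 or MCD 1), LRRFIP1-202 in MC -2.10 to -1.49 (called without MCD 1), LRRFIP2 sum and LRRFIP2-203 in MFGR -0.42 to 0.080 and -0.43 to 0.077, FLII sum in MC -0.15 to 0.028, FLII-201 in FC -0.35 to 0.061 and in FFGR -0.37 to 0.10, FLII-203 in FFGR -0.62 to 0.14 and over all groups -2.45 to -1.60. For the MFGR response minus the others the LRRFIP1 sum lay between -0.046 and 0.26, and with growth restriction between -0.32 and 0.14 in preadipocytes and -0.12 and 0.18 in differentiated cells, and LRRFIP1-201 in preadipocytes between -0.079 and 0.30.

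In the comparisons of growth, sex and response none of the 13 items was called under any alternative run for it. Counts over all transcripts moved more: 448 called in MC (82 to 825 over the alternatives), 23 in FC (1 to 741), 210 in MFGR (101 to 1143), 98 in FFGR (0 to 1196) and 3863 in the mean (1868 to 5102), so percentages called beside single groups are themselves uncertain. For gene sums they were 874 (427 to 2052), 50 (11 to 1504), 393 (127 to 2081), 310 (2 to 4138) and 3466 (1721 to 4173). Leaving out 1 library gave 50 (without MCD 3) to 1154 (without MCD 1) transcripts in MC, 0 to 24 in FC, 28 (without MFGRD 2) to 137 in MFGR, 0 to 49 in FFGR and 3566 to 3984 in the mean, and for gene sums 311 to 1746, 0 to 95, 77 to 317, 26 to 259 and 3297 to 3609. The replicate block changed no other call on the members than those named here and in the report.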
